A study of Mus musculus with 4 samples.

Results

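The genes described here encode protein kinases of the MAP kinase, casein kinase, calmodulin-dependent, DYRK, STK, PKA/PKC and ribosomal S6 families, together with protein phosphatase subunits and tyrosine or dual-specificity phosphatases. They were chosen by gene symbol alone, from a pattern of family prefixes, and each gene was counted once by its Entrez identifier. The pattern took 76 of the 2548 Ago2-bound features listed by the study, and 55 of its 1848 genes. Of the 55 genes, 14 had 2 or more features, 35 in all, and 41 had 1. A symbol prefix also takes in proteins that are neither protein kinase nor protein phosphatase, such as Mapk1ip1l, Mapkbp1, the kinase inhibitor Camk2n2, the regulatory subunits of protein phosphatases and the RNA phosphatase Dusp11.

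The study measured Ago2 binding to RNA by PAR-CLIP, in which cells take up the photoreactive nucleoside 4-thiouridine, RNA is crosslinked by light to the protein it touches, and the fragments bound by the precipitated protein are sequenced. The cells were B cell progenitors from mouse fetal liver at E14.5, on a C57BL/6 background, transformed with Abelson virus and therefore carrying the activated kinase v-Abl in both genotypes. Of the 4 libraries, 2 came from wild-type lines and 2 from lines with the genotype Bim3'UTRmut/mut, a homozygous mutation in the 3' untranslated region of the apoptosis gene Bim (Bcl2l11), labelled as biological replicates. In both genotypes 4-thiouridine was supplied at 500 µM during 5 hours of culture, and light of 365 nm made the crosslinks. RNase T1 (10 U/µl, 10 minutes) then digested the RNA on the Ago2 beads. The labels do not say whether the 2 lines of a genotype came from separate embryos, so p-values measure only the spread between these libraries, which may be technical.

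Ago2 is the Argonaute protein that holds a microRNA and brings it to matching sites, mostly in the 3' untranslated regions of messenger RNAs, where it lowers translation and stability. Kinases attach phosphate to proteins and phosphatases remove it. MAP kinase cascades run in tiers, from MAP3 kinases through MAP2 kinases to the MAP kinases ERK, JNK and p38, and dual-specificity phosphatases switch the last tier off. In B cell progenitors these cascades act downstream of cytokine and antigen receptors, and v-Abl feeds into them without a receptor. No RNA levels were used here, so more Ago2 on a transcript and more of that transcript cannot be told apart, nor can fewer cells of a type and less RNA per cell. Positions and sequences of the features were not analysed here, so no site is assigned to a microRNA.

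For each feature the authors' deposited table lists a mean, the log2 fold change between mutant and wild type, and a p without adjustment. From the digits of these means the whole reads of each library were worked out, and normalized reads are those reads divided by the library's size factor. Libraries on the wild-type side of the comparison are called Wa and Wb, and those on the mutant side Ma and Mb; which replicate each is was not known. The sides are those that return the signs of the authors' own fold changes, so they follow the authors' assignment and no label of a single library. Unless said otherwise, 4 values in a row are for Wa, Wb, Ma and Mb in that order. Reads in all listed features ranged from 14539 in Mb to 160207 in Wa. Intervals given for a single library are exact 95% Poisson intervals, which cover counting error only, and PCR copies may be among the reads.

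Library Mb stood apart from the other libraries and went against its label. Features of 7 B cell progenitor genes, the measured part of a list of 19, held 192.9, 222.9 and 226.6 normalized reads in Wa, Wb and Ma but 13.3 in Mb, where 8 of their 13 features had 0 reads. Features of 4 stromal and fibroblast genes out of 11 listed, namely Vim, Pdgfra, Thbs1 and F3, held 4.35, 8.29 and 11.3 normalized reads in Wa, Wb and Ma but 501.9 in Mb. Both lists were put together with results of these data known. Bcl11b, a T cell gene, was read in Mb alone. Every listed feature was taken to hold at least 5 reads in some library. Bcl11b, Pdgfra, Thbs1 and F3 reached 5 reads in Mb only, so they were listed through Mb, where they are high. Vim reached 5 reads in every library and held 4.08, 7.37, 9.71 and 103.9 normalized reads in Wa, Wb, Ma and Mb. The defining genes Cd79a, Pax5 and Ebf1 were not among the features analysed, nor was any of the hepatocyte, myeloid or erythroid markers, so Wa, Wb and Ma rest on Ikzf1, Irf4, Foxo1 and 4 others for their B lineage label. All 8 features of Bcl2l11, the mutated gene, lay below 0 by the authors' deposited table; together they held 88.6, 216.5, 34.0 and 103.9 normalized reads, and 6 of the 8 had 0 reads in Mb.

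**Figure D1:**
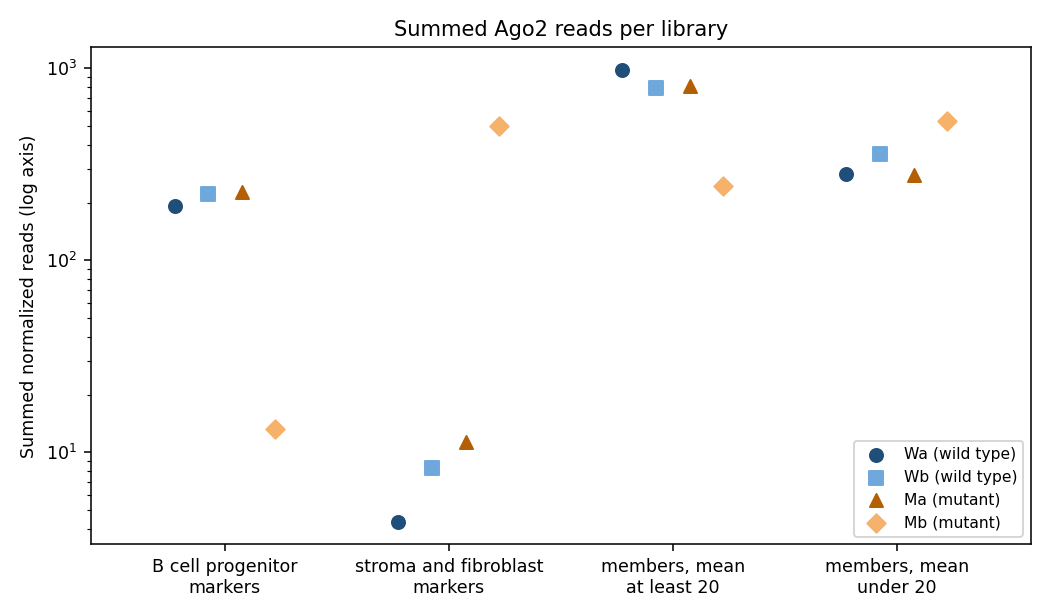
Summed normalized reads (log axis) in each library for B cell progenitor markers, stroma and fibroblast markers, and the kinase and phosphatase features with a deposited mean of at least 20 or under 20. Points are single libraries with no error bar. Mb holds 13.3 reads of the B cell markers against 192.9 to 226.6 in the others, and 243.2 of the stronger members against 795.0 to 981.8. Of the weaker members Mb holds 530.6 against 276.8 to 360.2 in the others.

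Of all listed reads kinase and phosphatase features took 2.90% for Wa (Wilson 95% interval 2.82 to 2.98), 3.23% for Wb (3.06 to 3.41), 2.72% for Ma (2.53 to 2.94) and 2.41% for Mb (2.17 to 2.67). With 2 libraries on each side an exact two-sided permutation test cannot give a p below 0.333, so these shares were not tested between genotypes. The 8 members with the highest deposited mean held 70.6%, 58.1% and 67.5% of the member reads of Wa, Wb and Ma, and 14.6% of those of Mb. That mean is set mostly by Wa, Wb and Ma; the 8 highest members of each library itself held 70.9%, 59.6%, 67.5% and 42.9% of its member reads. All 8 with the highest mean lay below 0 by the authors' deposited table, as did 80.4% of the 199 features whose mean was at least that of the lowest of the 8. Across the 76 features, Pearson's r of the log2 levels was 0.82 for Wa with Wb and 0.84 for Wa with Ma, but -0.05 for Wa with Mb and 0.03 for Ma with Mb. These are correlations over features of shared libraries and carry no test; over all 2548 features the same 4 values were 0.80, 0.83, 0.14 and 0.22.

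No member differed between the genotypes beyond the correction for many features. With Benjamini-Hochberg adjustment of the p-values in the authors' deposited DESeq2 table, 0 of 76 member features passed an adjusted p of 0.05, against 0.0% of all features, and the smallest adjusted p of a member was 0.531. Unadjusted, 3 members lay under p = 0.05 by the authors' deposited table, beside 8.48% of all features. On the higher side these were 2, beside 7.57%, and on the lower side 1, beside 0.903%. Both shares of members, 2.63% and 1.32%, are built on 3 features. Above 0 lay 40 members (47.5% of all features did) and below 0 lay 36 (52.5%), with a median log2 fold change of 0.08 by the authors' deposited table and -0.07 over all features. Both mutant libraries lay above both wild-type libraries in 7 members (13.1% of all features did) and below both in 12 (20.1% of all features). The other 57 overlapped. In Mb 20 members had 0 reads, beside 25.2% of all features, and in Ma 16, beside 23.7%.

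**Figure D2:**
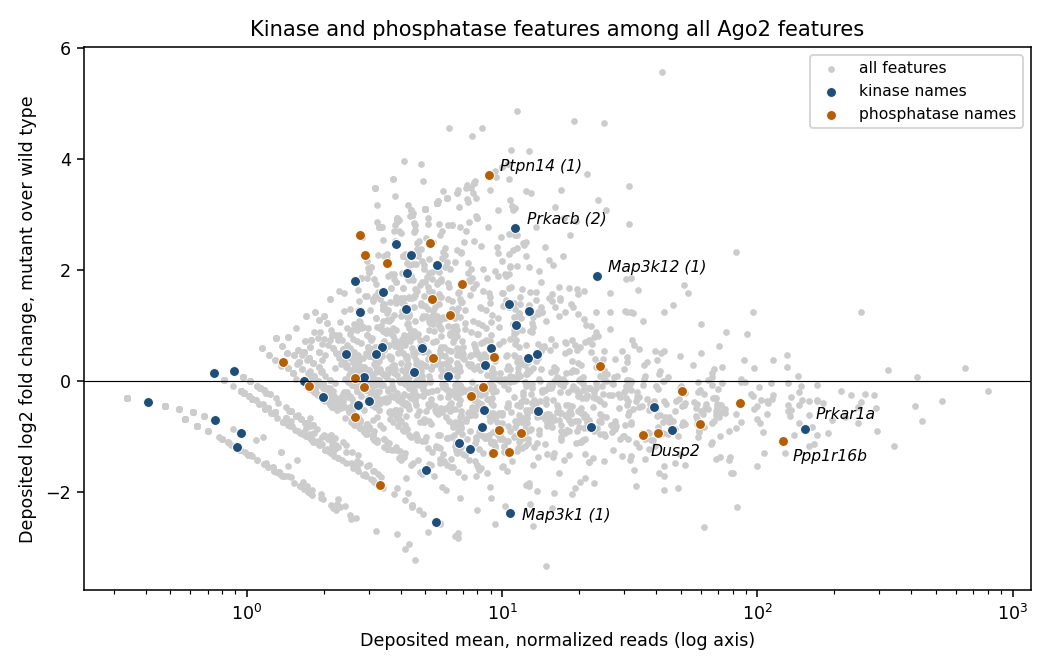
Deposited log2 fold change, mutant against wild type, against the deposited mean (normalized reads, log axis) for all 2548 features in grey, with the 47 features of kinase names in blue and the 29 of phosphatase names in orange. Members spread over the whole cloud, and those with the highest means lie below 0.

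The 3 members with an unadjusted p under 0.05 were read very unevenly. Ptpn14, a non-receptor tyrosine phosphatase of the FERM group known for holding back YAP, had a log2 fold change of 3.71 by the authors' deposited table (derived standard error 1.35, unadjusted p = 0.00605). The libraries Wa, Wb and Ma had 0 reads there and Mb had 16, that is 35.4 normalized reads (interval 20.2 to 57.4). Against a floor of 3 reads in each wild-type library, the level in Mb was 19.8-fold higher. A second Ptpn14 feature held 5 reads, again all in Mb, with a log2 fold change of 2.63 by the authors' deposited table. Features read in Mb alone were 2 of 76 members, both of Ptpn14, and 5.14% of all features. Under the assumed minimum of 5 reads in some library, such features are listed through Mb. A level above wild type there was therefore set by listing.

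Prkacb encodes a catalytic subunit of protein kinase A, the kinase released by cyclic AMP. Its feature 2 (features of a gene are numbered by falling mean) had a log2 fold change of 2.77 by the authors' deposited table (derived standard error 1.25, unadjusted p = 0.0264). It held 3, 3, 1 and 18 reads, so Ma lay within the wild-type range of 0.815 to 2.76 normalized reads and Mb at 39.8. Map3k1, which encodes MEKK1 at the head of the JNK cascade, was the one on the lower side. The log2 fold change of its feature 1 was -2.37 by the authors' deposited table (derived standard error 1.15, unadjusted p = 0.0393). It held 59, 24, 3 and 0 reads. Here both mutant libraries lay below both wild-type libraries, and in normalized reads the upper end of the Ma interval, 14.2, overlapped the 12.2 to 20.7 of Wa and just touched the 14.2 to 32.9 of Wb.

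Among the members with the highest means, Mb was low more often than Ma. This mean is set mostly by Wa, Wb and Ma, so choosing by it favours features high in those libraries and low in Mb. A deposited mean of at least 20 normalized reads, a limit set after the values were seen, was reached by 12 member features of 11 genes. Of these, 10 had a log2 fold change below 0 by the authors' deposited table, with a median of -0.80; over all 383 features at this mean 72.3% lay below 0, with a median of -0.38. Ma was lower than each wild-type library in 5 of the 12 (36.0% of the 383) and Mb in 10 (69.5%); Mb had 0 reads in 2 (4.96%). The 12 features summed to 981.8, 795.0, 809.3 and 243.2 normalized reads. As a share of the wild-type mean that was 91.1% in Ma and 27.4% in Mb, while all 383 features came to 103.9% and 53.3%. The 64 members with a mean under 20 went the other way in Mb, at 165.7%, and stood at 86.4% in Ma. For all features under 20 these shares were 158.0% in Mb and 91.2% in Ma. The assumed minimum of 5 reads in some library is worth 11.1 normalized reads in Mb and 1.36 in Wa. Weak features listed through Mb therefore enter with a high level there, which raises these shares for Mb. All 76 members together came to 64.0% in Mb, beside 81.1% over all features. Mb held under 10% of the wild-type mean in 5 of the 12 members and in 19.1% of the 383 features, and Ma in 0 of the 12 and 2.35%. With the limit at a mean of 10, 14 of 22 members lay below 0 (61.5% of all features at that mean) and 7 had under 10% of the wild-type mean in Mb (15.5%). With the limit at 50 these were 5 of 5 (83.0%) and 3 of 5 (23.5%). In Ma 0 members were under 10% of the wild-type mean at either limit, beside 2.9% and 2.61% of all features. The B cell marker sum stood at 6.38% of its wild-type mean in Mb and at 109.0% in Ma, and its part in these levels was not tested.

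**Figure D3:**
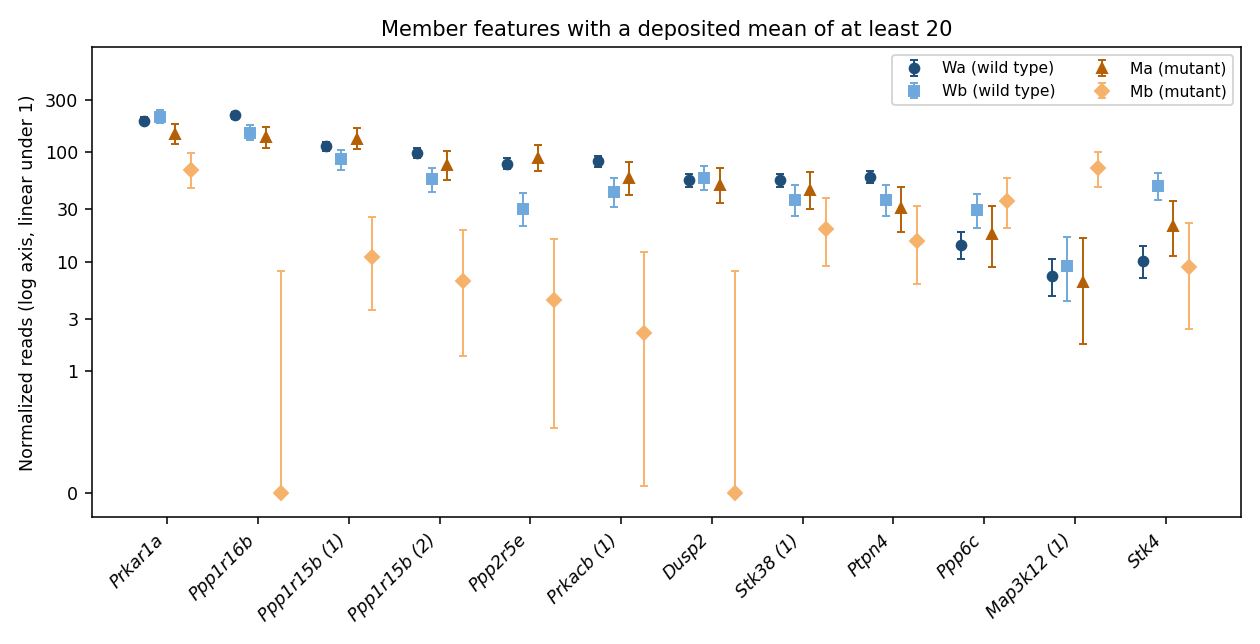
Normalized reads per library (log axis, linear under 1) for the 12 member features with a deposited mean of at least 20, with exact 95% Poisson intervals. Numbers in brackets give the feature of genes with several. Mb lies below Wa and Wb except at Ppp6c and Map3k12, while Ma lies below both at 5 of the 12; Ppp1r16b and Dusp2 have 0 reads in Mb.

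Prkar1a had the highest mean of all members, 154.3 normalized reads by the authors' deposited table. It encodes the type I regulatory subunit that keeps protein kinase A inactive until cyclic AMP binds. Its libraries held 192.9 and 210.0 normalized reads in wild type, 145.7 in Ma (interval 117.1 to 179.1) and 68.5 in Mb (46.6 to 97.3). Both mutant libraries were below both wild-type libraries, and the Ma interval touched that of Wa, which began at 179.0, and ended short of that of Wb, which began at 183.6. The log2 fold change was -0.85 by the authors' deposited table (derived standard error 0.70, unadjusted p = 0.220). Feature 1 of Prkacb, the catalytic partner, held 82.1, 43.3 and 58.3 normalized reads in Wa, Wb and Ma but 2.21 in Mb, with -0.87 by the authors' deposited table (derived standard error 1.11). The 2 Prkacb features therefore ran opposite ways in Mb, 1 nearly unread and 1 the highest of the 4 libraries, while Ma was within the wild-type range at both.

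Among regulators of protein phosphatase 1, Ppp1r16b and Ppp1r15b were the most read. Ppp1r16b, a membrane-anchored targeting subunit also called TIMAP, held 794, 163, 84 and 0 reads. In normalized reads these were 215.8, 150.1, 136.0 (interval 108.4 to 168.3) and 0 (interval up to 8.16). Against a floor of 3 reads in Mb, worth 6.63 normalized reads, the wild-type mean was 27.6-fold higher. Yet the fitted log2 fold change was -1.08 by the authors' deposited table (derived standard error 1.29, unadjusted p = 0.402). Ppp1r15b, the constitutive subunit that directs phosphatase 1 to the translation factor eIF2-alpha, had 4 features. Feature 1 held 113.0, 85.7, 132.7 and 11.1 normalized reads, and feature 2 held 98.9, 56.2, 76.1 and 6.63. At both, Ma stood inside or above the wild-type range and Mb far under it. Features 3 and 4 did not share this pattern. Feature 3 held 9.78, 5.53, 12.9 and 8.84 normalized reads and feature 4 held 1.36, 5.53, 4.86 and 13.3, with log2 fold changes of 0.43 and 1.19 by the authors' deposited table against -0.40 and -0.78 for features 1 and 2.

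The remaining phosphatase 1 features had fewer reads. Ppp1r8, the nuclear inhibitor NIPP1, was read 0, 1, 0 and 6 times in Wa, Wb, Ma and Mb, and had 2.13 by the authors' deposited table (unadjusted p = 0.115). Over the 9 features of this group, 5 were above and 4 below 0, with a median of 0.05 by the authors' deposited table. Their reads summed to 452.2, 332.5, 373.9 and 68.5 normalized reads in Wa, Wb, Ma and Mb.

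Other serine and threonine phosphatases differed among themselves. Ppp2r5e, a B56 regulatory subunit of phosphatase 2A, held 78.0, 30.4, 89.0 and 4.42 normalized reads. The wild-type libraries were apart here by more than their counting intervals, 69.2 to 87.6 and 20.9 to 42.7. Ppp3r1, the regulatory subunit of the calcium-activated phosphatase calcineurin, had 2 features with log2 fold changes of -0.93 and -0.87 by the authors' deposited table. Feature 1 held 20.1, 12.9, 14.6 and 0 normalized reads, and feature 2 held 15.5, 10.1, 6.47 and 6.63. Only at feature 2 were both mutant libraries below both wild-type ones. Ppm1e, a magnesium-dependent phosphatase, held 4.35, 12.9, 12.9 and 0 normalized reads. Ppp6c, the catalytic subunit of phosphatase 6, was an exception among the strong members, at 14.1, 29.5, 17.8 and 35.4 normalized reads, with 0.27 by the authors' deposited table (derived standard error 0.82). Its partner Ppp6r1 held 18, 2, 1 and 1 reads, or 4.89, 1.84, 1.62 and 2.21 normalized reads.

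The MAP3 kinases formed the group with the most features, 11 of 5 genes, 6 above and 5 below 0 by the authors' deposited table. Map3k12, the dual leucine zipper kinase best known from neurons, had the highest mean of the group, 23.4 normalized reads by the authors' deposited table. Its feature 1 held 27, 10, 4 and 32 reads, or 7.34, 9.21, 6.47 and 70.7 normalized reads (interval in Mb 48.4 to 99.9). The log2 fold change was 1.90 by the authors' deposited table (derived standard error 1.04, unadjusted p = 0.0687). Only Mb was high, and Ma was the lowest, with a counting interval of 1.76 to 16.6 that spanned both wild-type values. Feature 2 had 2.72, 4.61, 3.24 and 8.84 normalized reads.

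Map3k2, which encodes MEKK2, a kinase upstream of JNK and ERK5, had 5 features that were not alike. Feature 1 held 87, 11, 12 and 1 reads, or 23.6, 10.1, 19.4 and 2.21 normalized reads. Feature 2 held 27, 13, 2 and 2 reads, or 7.34, 12.0, 3.24 and 4.42 normalized reads. Features 3 and 4 held 4, 2, 1 and 8 reads and 0, 1, 0 and 9 reads, so that on these most of the normalized signal lay in Mb, at 17.7 and 19.9. Feature 5 held 6, 2, 2 and 0 reads. Their log2 fold changes by the authors' deposited table were -0.53, -1.12, 2.10, 2.49 and -0.00077 for features 1 to 5, with unadjusted p between 0.0636 and 1.00. Summed over its 5 features, Map3k2 came to 33.7, 26.7, 27.5 and 44.2 normalized reads, with Ma inside the wild-type range and Mb above it. Most of the Mb sum lay in features 3 and 4, which reached the assumed minimum of 5 reads in Mb only and so were listed through it. Feature 2 of Map3k1 likewise differed from feature 1. It held 1.09, 13.8, 1.62 and 17.7 normalized reads, so the wild-type libraries were as far apart as the mutant ones.

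Below the MAP3 kinases, Map2k4 encodes MKK4, which phosphorylates JNK and p38. Its feature 1 held 35, 13, 11 and 5 reads, that is 9.51, 12.0, 17.8 and 11.1 normalized reads, with Mb inside the wild-type range and Ma above it, and 0.41 by the authors' deposited table (derived standard error 0.86). Feature 2 was read 11 times in Wa and not elsewhere. The MAP kinases themselves had few reads. Mapk14, p38-alpha, held 6, 0, 3 and 5 reads, and its log2 fold change was 2.27 by the authors' deposited table (derived standard error 1.32, unadjusted p = 0.0864). In normalized reads this was 1.63, 0, 4.86 and 11.1, so both mutant libraries were above both wild-type ones, on 14 reads in all. Mapk1ip1l, placed in this group by its symbol, was alike, with 1.09, 0, 3.24 and 11.1 normalized reads and 2.47 by the authors' deposited table.

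Mapkbp1, a JNK-binding scaffold, held 3, 3, 0 and 6 reads. Rps6ka4 and Rps6ka5 encode the nuclear kinases MSK2 and MSK1, which ERK and p38 activate, and they lay on opposite sides. Rps6ka4 held 7.88, 6.45, 17.8 and 13.3 normalized reads, with both mutant libraries higher and 1.01 by the authors' deposited table (derived standard error 0.88). Rps6ka5 held 8.42, 12.0, 1.62 and 0, with both lower and -2.53 by the authors' deposited table (derived standard error 1.39, unadjusted p = 0.0676).

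Casein kinases phosphorylate acidic stretches of many substrates, among them beta-catenin and the clock protein PER. Csnk1g1, a membrane-bound casein kinase 1, had 2 features that behaved alike. Feature 1 held 20, 9, 4 and 14 reads, and feature 2 held 16, 6, 1 and 14. In normalized reads Mb was at 31.0 on both, while Wa, Wb and Ma were at 5.44, 8.29 and 6.47 on feature 1 and at 4.35, 5.53 and 1.62 on feature 2. Their log2 fold changes were 1.26 and 1.38 by the authors' deposited table (derived standard errors 1.00 and 1.17). The other 2 casein kinase features had 11 and 12 reads in all. Dyrk1a, whose human counterpart lies in the Down syndrome region, had 3 features, all above 0, with 1.94, 0.07 and 0.48 by the authors' deposited table. At feature 1 both mutant libraries were higher, with 0.815, 1.84, 3.24 and 11.1 normalized reads on 12 reads in all.

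Kinases regulated by second messengers other than Prkar1a and Prkacb had fewer reads. Prkd3, protein kinase D3, held 10.9, 11.1, 4.86 and 6.63 normalized reads, both mutant libraries lower, with -0.83 by the authors' deposited table (derived standard error 1.00). Prkcb, the protein kinase C of B cell receptor signalling, held 8, 16, 2 and 0 reads. In normalized reads these were 2.17, 14.7, 3.24 and 0, with -1.59 by the authors' deposited table. Camk2d, a calmodulin-dependent kinase, held 14, 20, 2 and 2 reads, and Wb at 18.4 normalized reads stood above the 3.80, 3.24 and 4.42 of the others. Camk4, a kinase of lymphoid and neural cells, had 2 features read in wild type alone, 10 and 1 reads in Wa and Wb on feature 1 and 6 in Wa on feature 2. At that depth the zeros in Ma and Mb, whose intervals end at 5.97 and 8.16 normalized reads, cannot show a difference.

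In the STK group, Stk38 encodes NDR1 and Stk3 and Stk4 encode MST2 and MST1, all of the Hippo pathway that restrains growth. Feature 1 of Stk38 held 55.2, 36.8, 45.3 and 19.9 normalized reads, with Ma inside the wild-type range and Mb under it. Its log2 fold change was -0.45 by the authors' deposited table (derived standard error 0.77). Feature 2 held 5.44, 2.76, 3.24 and 6.63. Stk4, named here after its values were seen, held 10.1 and 48.8 normalized reads in the wild-type libraries and 21.0 and 8.84 in the mutant ones, so its wild-type spread was wider than the difference between genotypes. In Stk3 Ma alone was high, with 5, 1, 7 and 0 reads or 1.36, 0.921, 11.3 and 0 normalized reads, and 1.61 by the authors' deposited table (derived standard error 1.39).

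Dusp2, the phosphatase PAC-1 that lymphocytes use to switch off nuclear ERK and p38, was read to a like level in the libraries other than Mb. Normalized reads were 55.2 for Wa (interval 47.8 to 63.3), 58.0 for Wb (44.6 to 74.2) and 50.2 for Ma (34.1 to 71.2), and 0 for Mb. The 203, 63 and 31 reads behind these values leave their intervals overlapping. In Mb the level was at least 8.53-fold below the wild-type mean of 56.6. Its fold change on the log2 scale was -0.93 by the authors' deposited table (derived standard error 1.21, unadjusted p = 0.443). Dusp11, whose substrate is RNA, held 3.80, 13.8, 4.86 and 11.1 normalized reads, overlapping between genotypes. The remaining feature of the group had 18 reads in all and -0.11 by the authors' deposited table.

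Of the 8 features of non-receptor tyrosine phosphatases, 6 had a log2 fold change above 0 (47.5% of all features did), with a median of 1.88, and both features of receptor tyrosine phosphatases were below 0, at -1.28 and -1.86, all by the authors' deposited table. Every listed feature was taken to hold at least 5 reads in some library. Only Mb reached 5 reads at both Ptpn14 features and at Ptpn21 and Ptpn11, these named after their values were seen. The median of 1.88 therefore rests in part on features listed through Mb. In the non-receptor family the median log2 ratio against wild type was 3.09 in Mb and 0.00 in Ma. The value of 0.00 is that of the Ptpn14 features, which had 0 reads in Wa, Wb and Ma, so the added 0.5 fixes it. Summed reads of the family were 196.1% of the wild-type mean in Mb and 74.8% in Ma. None of the 10 passed an adjusted p of 0.05, and the families were not tested against each other. Ptpn1, PTP1B, a brake on JAK and insulin receptor signalling, had 1.90, 2.76, 3.24 and 13.3 normalized reads in Wa, Wb, Ma and Mb on feature 1, both mutant libraries higher, and held 5, 1, 2 and 0 reads on feature 2. Ptpn4, a phosphatase with FERM and PDZ domains, was the most read of the family and lay the other way. It held 59.2, 36.8, 30.8 and 15.5 normalized reads, both mutant libraries lower, with -0.97 by the authors' deposited table (derived standard error 0.77, unadjusted p = 0.207).

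Among receptor phosphatases, Ptpre held 31, 25, 4 and 2 reads, or 8.42, 23.0, 6.47 and 4.42 normalized reads. Ptprj, CD148, which activates SRC family kinases in B cells, held 16, 8, 1 and 0 reads, or 4.35, 7.37, 1.62 and 0. In both, each mutant library was below each wild-type library, though Ma and Mb together had 6 reads at Ptpre and 1 at Ptprj. Ptp4a1, the membrane-attached phosphatase PRL-1, had both mutant libraries higher, at 4.86 and 17.7 against 2.45 and 2.76 normalized reads, and 1.76 by the authors' deposited table (derived standard error 1.10, unadjusted p = 0.112).

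**Figure D4:**
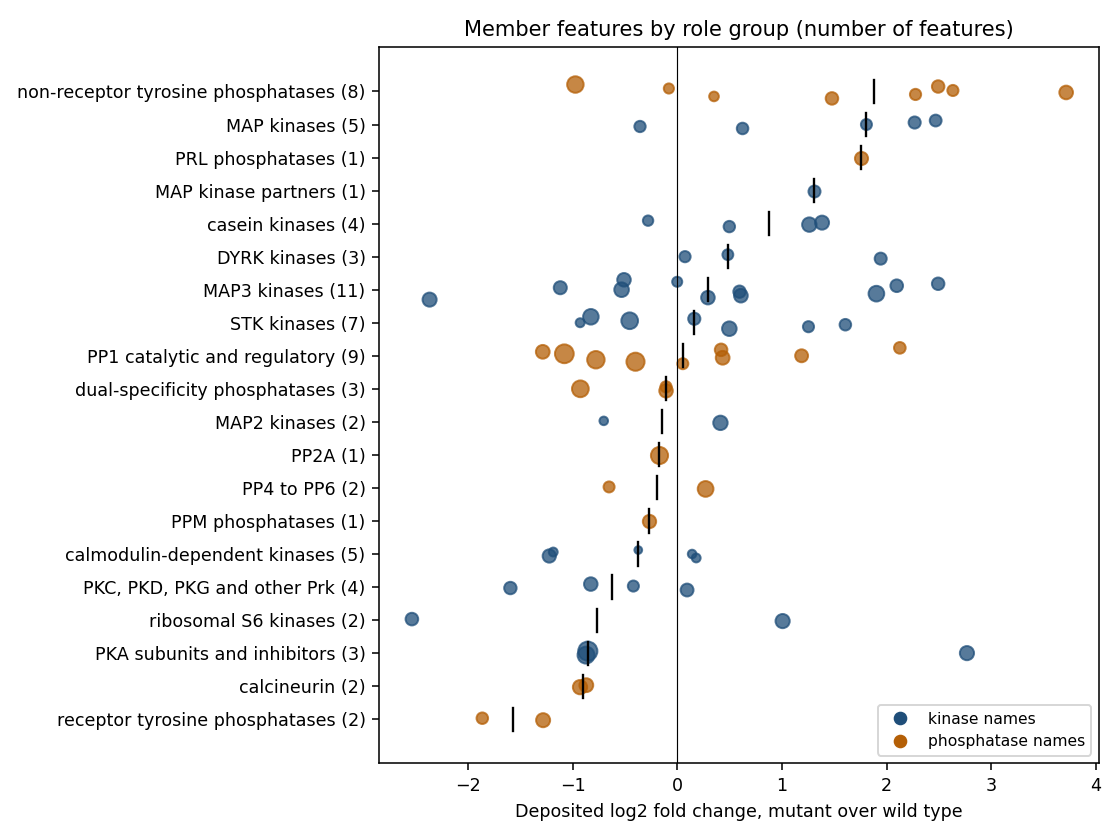
Deposited log2 fold change, mutant against wild type, for every member feature, by role group, with the number of features in brackets. Blue points have kinase names and orange points phosphatase names, larger points have a higher deposited mean, and black bars are group medians. Non-receptor tyrosine phosphatases have a median of 1.88, receptor ones have -1.57, and most groups straddle 0. In the non-receptor group the median log2 ratio to wild type is 3.09 in Mb and 0.00 in Ma. The 0.00 is set by Ptpn14, which has 0 reads in Wa, Wb and Ma. Both Ptpn14 features, Ptpn21 and Ptpn11 reach 5 reads in Mb only.

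The 19 member features outside the naming rule had deposited means of 0.744 to 22.2 normalized reads and 6 to 107 reads in all. Of these, 11 lay above 0 and 8 below, between -1.28 and 2.49 by the authors' deposited table, and 5 had 0 reads in Mb and 7 in Ma.

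The 47 features with kinase names had 27 above 0 and a median log2 fold change of 0.16 by the authors' deposited table, and the 29 with phosphatase names had 13 above 0 and a median of -0.11. In Mb the phosphatase features came to 39.4% of their wild-type mean and the kinase features to 93.3%. In Ma these shares were 95.7% and 82.9%. The phosphatase sum rests on few features, since Ppp1r16b, Ppp1r15b and Ppp2r5e are among the 5 members with the highest means.

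Features of a single transcript share their RNA, so genes with several features were examined for whether these ran together. Of the 14 such genes, 5 had every feature above 0 by the authors' deposited table (Csnk1g1, Dyrk1a, Map3k12, Ptpn1 and Ptpn14), 2 had every feature below 0 (Camk4 and Ppp3r1) and 7 had features on both sides. Prkacb, Map3k2 and Map3k1 had the widest spans among the 7, from -0.87 to 2.77, -1.12 to 2.49 and -2.37 to 0.29 by the authors' deposited table. Derived standard errors of 1.06 to 1.42 in these 3 genes are wide beside such spans, and differences between features of a gene were not tested. Shares over all genes with several features are not given here, so these counts cannot be called unusual. Both Ptpn14 features, Prkacb feature 2 and Map3k2 features 3 and 4 reached the assumed minimum of 5 reads in Mb only. Their signs were largely set by listing.

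**Figure D5:**
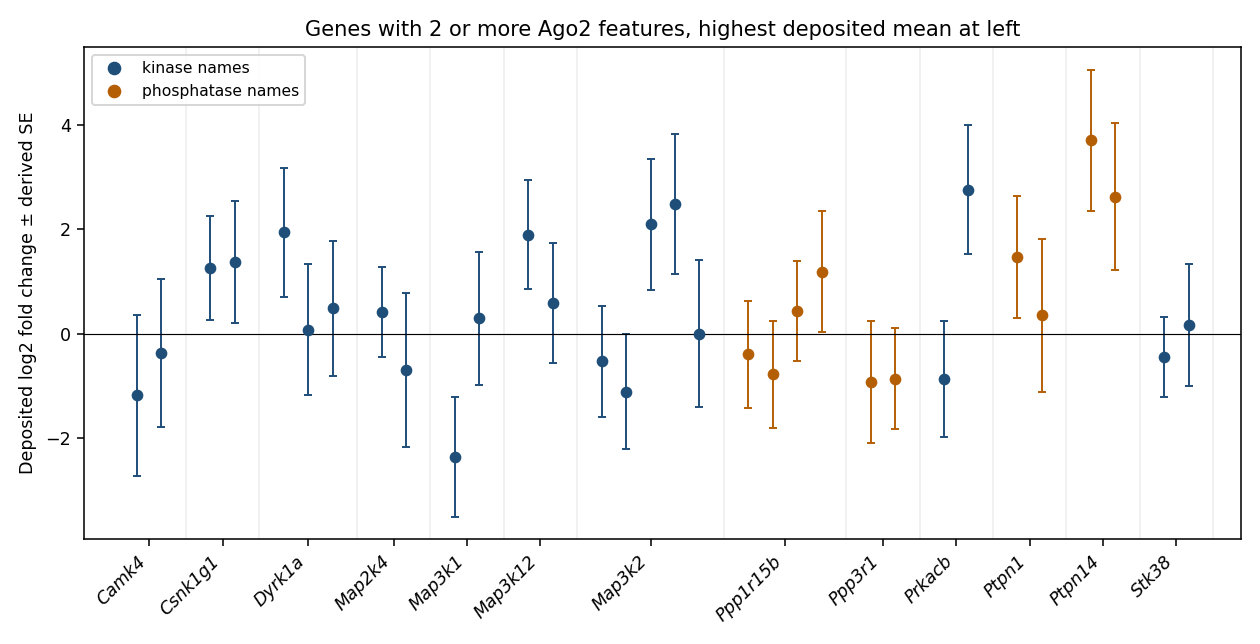
Deposited log2 fold change with its derived standard error for each feature of 13 of the 14 member genes with 2 or more features, ordered within a gene by falling deposited mean. Blue marks kinase and orange phosphatase names. The features of Prkacb, Map3k1 and Map3k2 lie on both sides of 0, and both features of Ptpn14 and Csnk1g1 lie above it.

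Leaving out a mutant library changed the picture for the members. Without Mb, limma's voom on the recovered reads set Ma alone against Wa and Wb, with the lone library assumed to vary like the others. It called 0 of 74 members at an adjusted p of 0.05 (0.0% of all features) and left 1 member, Stk3, at an unadjusted p under 0.05, on the higher side (1.37% of all features), and 0 on the lower (0.165%). Ptpn14 had no reads left to test. Of the 12 strong members, Prkar1a, Ppp1r16b and Dusp2 then had voom log2 fold changes of -0.46, -0.42 and -0.15, and 5 of the 12 changed sign: feature 1 of Ppp1r15b had 0.42, Ppp2r5e 0.80, Stk4 0.13, Ppp6c -0.07 and feature 1 of Map3k12 -0.20. Of the 3 members with an unadjusted p under 0.05, Prkacb feature 2 then had 0.88 and Map3k1 feature 1 had -1.72 (unadjusted p from limma 0.600 and 0.101).

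Without Ma, the same fit compared Mb with Wa and Wb and called 11 members at an adjusted p of 0.05. On the higher side these were 8 of 76 members, beside 13.0% of all features: both Ptpn14 features, Prkacb feature 2, Map3k12 feature 1, Map3k2 features 3 and 4, Ppp1r8 and Ptpn21, the last named after its values were seen. On the lower side they were Ppp1r16b and features 1 and 2 of Ppp1r15b, 3 of 76 beside 1.02% of all features. On the higher side, all but Map3k12 feature 1 reached the assumed minimum of 5 reads in Mb only. They were listed through the library where they are high, so their direction was largely set by listing. Voom log2 fold changes on the lower side were -7.38, -3.32 and -3.05 for Ppp1r16b, Ppp1r15b feature 2 and Ppp1r15b feature 1. At an unadjusted p under 0.05 they were 19 higher (18.6% of all features) and 7 lower (4.52%). The smallest adjusted p from limma among the 11 was 0.0356. With all 4 libraries voom called 0 members, with 2 higher (2.94% of all features) and 0 lower (0.157%) at an unadjusted p under 0.05.

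Genes around these enzymes were taken from lists chosen with earlier results known. The RAS-ERK pathway outside the symbol pattern had 29 features of 20 of 48 listed genes, 18 above and 11 below 0, with a median of 0.26 by the authors' deposited table. None passed an adjusted p of 0.05, and 4 lay under an unadjusted p of 0.05, all higher (7.57% of all features). These were 2 features of Fosl2 and 1 each of Fosl1 and Egr1, transcription factors switched on by ERK. The stronger Fosl2 feature held 0, 1, 0 and 19 reads, and the other 2, 0, 2 and 6. Fosl1 held 6 reads, all in Mb, and Egr1 held 7, 2, 3 and 11. These features of Fosl2 and Fosl1 reached the assumed minimum of 5 reads in Mb only. They were listed through the library where they are high, so their direction was largely set by listing. Gab1, an adaptor that recruits the phosphatase SHP2, was the most read of the list at 1652, 363, 198 and 34 reads. In normalized reads these were 448.9, 334.4, 320.5 and 75.2, with -0.90 by the authors' deposited table (derived standard error 0.85). Sos1, which loads RAS with GTP, held 311, 64, 22 and 5 reads, or 84.5, 59.0, 35.6 and 11.1 normalized reads. The most read feature of Elk4, an ETS factor phosphorylated by ERK, held 223, 78, 71 and 20 reads, or 60.6, 71.9, 114.9 and 44.2 normalized reads, with Ma highest.

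Substrates and partners of casein kinases and phosphatase 2A had 13 features of 10 of 31 listed genes, 8 above and 5 below 0, with a median of 0.09 by the authors' deposited table, and 0 under an unadjusted p of 0.05. Arpp19, which inhibits phosphatase 2A when cells enter mitosis, held 805, 64, 171 and 10 reads on its stronger feature and 87, 6, 22 and 0 on the other. In normalized reads these were 218.8, 59.0, 276.8 and 22.1, and 23.6, 5.53, 35.6 and 0, so Ma was highest and Mb lowest at both. Anp32e, of a family that includes phosphatase 2A inhibitors, held 382, 48, 49 and 2 reads, or 103.8, 44.2, 79.3 and 4.42 normalized reads. The list summed to 389.1, 144.6, 425.7 and 126.0 normalized reads in Wa, Wb, Ma and Mb.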

How the data were processed

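CASAVA 1.8.2, BWA 0.7.12-r1039, DESeq2 (no version) and the builds mm9 and NCBIM37 are named per the submitters' processing notes. How features were defined and reads filtered is not given in the sources used here. Per the file headers, the deposited mean is a normalized signal (reads over DESeq2 size factors, averaged over 4 libraries), and further columns hold the authors' log2 fold changes and their p-values before adjustment. The direction comes from the table's name.

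Members, roles, lists and tests were chosen with earlier results of these data known. Benjamini-Hochberg adjustment ran over all 2548 features. Standard errors were derived from each fold change and p as for a Wald statistic. Whole reads were recovered from the 15-digit means. The search kept only solutions with at least 5 reads in some library, an assumed minimum, and under it all 2548 features had 1 solution. A feature that reached 5 reads in Mb only was thus listed through Mb, and its height there was set in part by listing. Median-of-ratios size factors computed from these reads over 1350 features read in every library matched the recovered ones (3.68, 1.09, 0.618 and 0.452 for Wa, Wb, Ma and Mb). The sides used gave the sign of 98.8% of deposited log2 fold changes (other splits at most 67.6%). Alternatives used limma 3.58.1 in R 4.3.3. Of these, voom on all 4 libraries with the recovered size factors was tested on simulated data. The other alternatives, among them the fits leaving out a library, were not. Medians over log2 ratios add 0.5. Features named with values are the 8 highest means, p under 0.05, the highest mean and smallest p of each role group, genes with several features, and Dusp features with at least 20 reads; in lists, the 3 highest means and p under 0.05. All 55 Entrez identifiers matched the RefSeq table of GRCm38.p6, used for names only. Of the genes this rule names, 1 is not reported here, though all totals include it. Wilson and Poisson intervals are 95%.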

Additional observations from a re-analysis of the deposited data

How the results depend on the processing

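No paired analysis was possible because the table carries no replicate numbers, so no pairing of its libraries is given. Over all features 0 were called in the deposited comparison and 1 with an empirical null; leaving out each library gave 0 to 356, the highest without Ma. Members called were 0 throughout, except 11 without Ma (range 0 to 11). Members at an unadjusted p under 0.05 were 3; they were 1 at a limit of 0.01, 9 with the empirical null, 0 with voom where a feature needed 20 reads, and 1 to 26 leaving out each library (5 without Wb, 26 without Ma, 1 without Mb). The median log2 fold change of members was 0.08; it was -0.11 with 1 feature per gene, -0.17 at or above the median mean, -0.62 with voom where a feature needed 20 reads (18 above and 26 below 0; -0.34 over all features), 0.44 with voom on total reads (0.17), and -0.13 to 0.22 leaving out each library (below 0 without Wa). Without Prkar1a the member share was 2.46% in Wa, 2.64% in Wb and 2.36% in Ma. The cause of these moves was not tested.

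With voom, TMM scaling and total reads, added after seeing the data, in that order, 2 described features turned sign: Map3k2 feature 5 (0.26, 0.083, 0.48) and Dusp11 (0.16, 0.016, 0.37). Ranges of voom log2 fold changes leaving out each library crossed 0 at Camk2d (-2.03 to 0.24), Csnk1g1 feature 2 (-1.07 to 2.67), Dusp11 (-0.82 to 1.05), Dyrk1a feature 2 (-0.30 to 0.88), Map3k1 feature 2 (-1.17 to 2.46), Map3k12 feature 1 (-0.20 to 3.12), Map3k2 feature 1 (-2.36 to 0.26) and 5 (-0.79 to 1.08), Mapkbp1 (-0.71 to 3.45), Ppm1e (-2.64 to 0.93), Ppp1r15b feature 1 (-3.05 to 0.42), Ppp2r5e (-3.24 to 0.80), Ppp6c (-0.18 to 0.91), Ppp6r1 (-0.82 to 0.31), Ptpn1 feature 2 (-0.41 to 1.46), Stk3 (-0.41 to 3.05), Stk38 feature 2 (-0.12 to 0.80) and Stk4 (-1.73 to 0.57). With 3 reads in Mb worth 6.63 normalized reads, zeros there say little for members under that level, which leaves 8 of the 20 members at 0 in Mb above it (141 of 641 for all features).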

Other observations

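Protein kinases outside the symbol pattern gave a further view of the family. The list, chosen with earlier results known, had 37 features of 25 of its 68 genes, of which 19 lay above 0 and 18 below; by the authors' deposited table their median was 0.14 (log2). None passed an adjusted p of 0.05, and 1 on each side lay under an unadjusted p of 0.05, beside 7.57% of all features higher and 0.903% lower. Jak1, the kinase of cytokine receptors including that for interleukin 7, held 361, 141, 31 and 15 reads (Wa, Wb, Ma, Mb). In normalized reads these were 98.1, 129.9, 50.2 and 33.2. Cdk13, a kinase of RNA polymerase II, held 3, 1, 1 and 10 reads, so it was listed through Mb, the only library with at least 5. Sik1, a kinase of the AMPK family, and Hipk3, a nuclear kinase, differed from the strong members described above. Sik1 held 255, 87, 5 and 50 reads, or 69.3, 80.1, 8.09 and 110.5 normalized reads. The most read Hipk3 feature held 90, 70, 5 and 27 reads, or 24.5, 64.5, 8.09 and 59.7 normalized reads. Ma was the lowest library at both, and Mb the highest at Sik1. Their log2 fold changes were -0.29 and -0.35 by the authors' deposited table.

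The pattern read symbols as listed, and 2 features match it only under their RefSeq symbols, Ppp1r37 (listed as Lrrc68) and Ppp1r21 (listed as Klraq1). They were kept out of every count.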
